A study of Mus musculus with 4 samples.

Results

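Polycomb repressive complex genes were followed in DN4 thymocytes, the last immature stage of thymic T cell development before the cells express the coreceptors CD4 and CD8. A list of 32 subunits of Polycomb repressive complex 2 (PRC2), of the canonical and variant forms of Polycomb repressive complex 1 (PRC1) and of the Polycomb deubiquitinase (PR-DUB) was matched by symbol to the deposited expression values. A member was taken where a probe set carried its symbol and no other, and the probe set with the highest mean represented a gene with several. This gave 31 of the 32 genes, out of 19938 genes measured in this way. Cbx6 had no such probe set and was not analysed here.

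The cells were sorted from 4 mice that all carried floxed alleles (Ikf/f) of Ikzf1, which encodes Ikaros, a zinc-finger protein that binds DNA. In 2 mice, 129 and 135, the alleles could be excised by a tamoxifen-activated Cre recombinase expressed from the Rosa26 locus (Rosa26-CreERT2+, here Cre+), while mice 131 and 137 lacked the recombinase (Cre-). Tamoxifen was injected intraperitoneally in all 4 mice, 50 mg/kg on each of 4 days, and the cells were taken 24 h later. The protocol text of the 2 Cre- samples repeats the Cre+ genotype, so that the groups rest on the sample titles and on the series' design text. Rosa26 is active in most cell types, so deletion was not limited to thymocytes, and an effect of the recombinase itself cannot be told apart from an effect of the deletion. The sources used here do not give strain or age. Each mouse gave 1 Affymetrix gene array, and the number of arrays limits the precision of every value.

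Polycomb proteins keep genes silent. PRC2 methylates a lysine in the tail of histone H3 through Ezh1 or Ezh2, and PRC1 attaches ubiquitin to another core histone through Ring1 or Rnf2. Canonical PRC1 reads the methyl mark through its Cbx subunits and compacts chromatin through its Phc subunits, whereas variant PRC1 holds Rybp or Yaf2 instead, and PR-DUB removes the ubiquitin. In developing T cells these complexes restrain genes of other lineages, and Ikaros is known to act together with chromatin repressors. The comparison of Cre+ with Cre- cells therefore asks whether the transcripts of the complexes differed after Ikaros deletion.

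The measured members read above background in DN4 cells, and no member passed the test between Cre+ and Cre- cells. All 31 measured members lay above the background level, as did 13049 of all 19938 genes. Of the members, 0 had an adjusted p under 0.05 in limma, a linear model fitted to all 35556 probe sets (smallest adjusted p = 0.560). At that threshold 0% of all probe sets were called, so the count of 0 is no property of the members. Limited to probe sets with 1 gene symbol, the test called 1.22% of 21789 probe sets and again 0 members (smallest adjusted p = 0.227, for Phc1). At an unadjusted p under 0.05, 2 of 31 members were called, both higher in Cre+ cells (Phc1 and Pcgf2), and 6.86% of all genes were called in the same way, 4.12% higher and 2.74% lower. The members' share was 6.45%, near that of all genes, while 9.52% of the 13049 genes above the background level were called. The members called changed when single mice were left out, but such a fit keeps only 1 mouse in 1 group. A call lost there cannot be told apart from a loss of precision. Without single mice the log2 differences were 0.21 to 0.30 for Phc1 and 0.21 to 0.43 for Pcgf2.

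The intervals of the differences were narrow. Differences are log2 values, positive where Cre+ cells were higher, and SE is the moderated standard error of limma. Over the 31 members they ran from -0.19 to 0.32 with a median of 0.03, against a median of -0.01 over all genes. An absolute difference of 0.25 or more was found in 2 members, in 6.15% of all genes and in 8.57% of those above the background level. The 95% interval lay within 0.5 log2 units of 0, a 1.41-fold difference either way, for 30 of the 31 members. This held for 90.8% of all genes and for 88% of those above the background level. Among the members, Pcgf2 was the exception. The samples are separate mice, and in sorted bulk cells fewer cells of one kind and less RNA per cell cannot be told apart.

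**Figure D1:**
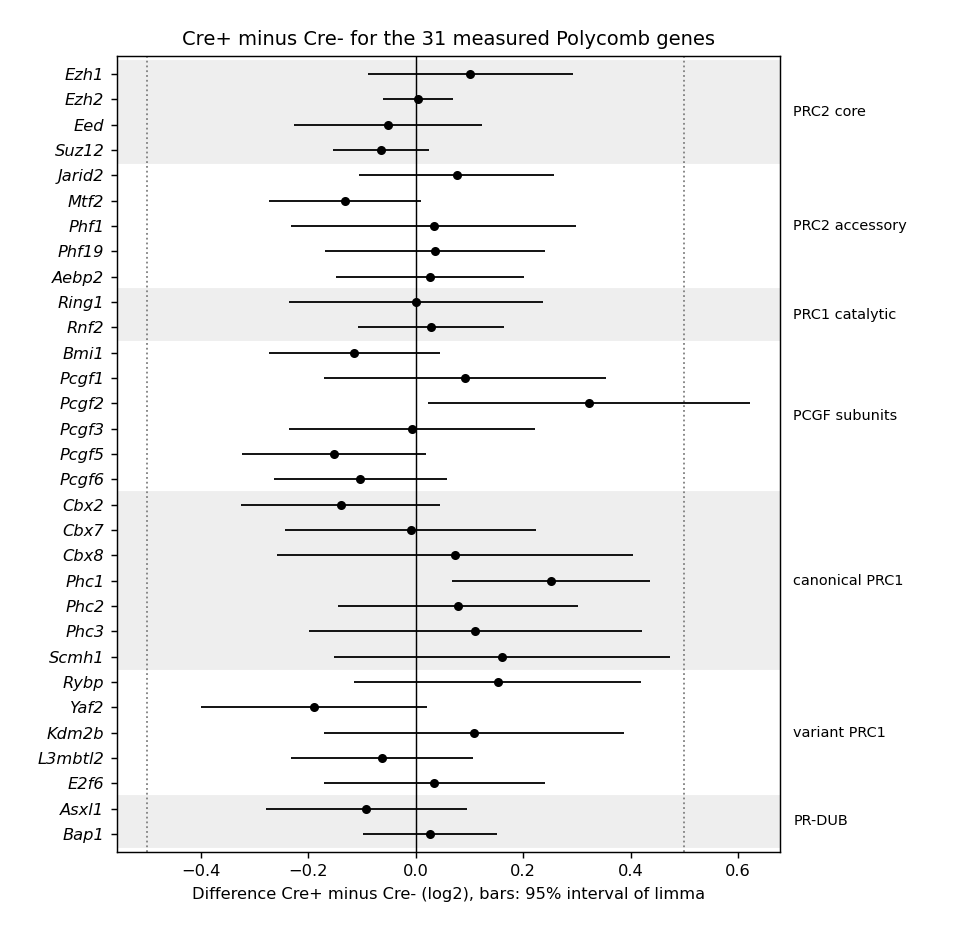
Difference between Cre+ and Cre- (horizontal axis, log2) for the 31 measured Polycomb genes, ordered by role. Points are the differences, bars the 95% interval of limma, and dotted lines mark 0.5 log2 units on either side of 0. The bars of Phc1 and Pcgf2 do not cross 0, and the bar of Pcgf2 alone passes a dotted line.

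The stretches before the transcription start of Phc1, Pcgf2 and Ezh2 are shown because Phc1 and Pcgf2 had the 2 largest differences and Ezh2, the catalytic subunit of PRC2, had one of the smallest. Ikaros binds DNA at sites with the core GGGAA, which is in capitals here on either strand (TTCCC on the other). The sequences are the 250 bases before the start site, 5′ to 3′ on the strand of the gene, from RefSeq on the build GRCm38.p6. They come from chr6:122340228-122340477 for Phc1, chr11:97699649-97699898 for Pcgf2 and chr6:47595031-47595280 for Ezh2, all on the minus strand.
Phc1: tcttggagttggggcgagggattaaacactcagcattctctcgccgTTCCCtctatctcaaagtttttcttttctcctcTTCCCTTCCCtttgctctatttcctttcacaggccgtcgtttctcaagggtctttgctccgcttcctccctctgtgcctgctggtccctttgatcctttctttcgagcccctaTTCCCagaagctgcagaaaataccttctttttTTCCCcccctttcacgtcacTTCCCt
Pcgf2: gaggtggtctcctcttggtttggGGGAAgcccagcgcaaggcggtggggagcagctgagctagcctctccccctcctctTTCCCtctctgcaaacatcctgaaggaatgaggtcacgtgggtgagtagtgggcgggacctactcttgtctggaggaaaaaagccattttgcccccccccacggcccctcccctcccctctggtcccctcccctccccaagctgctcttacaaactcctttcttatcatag
Ezh2: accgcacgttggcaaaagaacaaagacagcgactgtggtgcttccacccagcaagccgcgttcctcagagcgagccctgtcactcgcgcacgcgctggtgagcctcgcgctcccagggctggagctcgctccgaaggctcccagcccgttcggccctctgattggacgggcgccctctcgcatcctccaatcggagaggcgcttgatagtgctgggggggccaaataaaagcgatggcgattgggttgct

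The core was present 6 times before Phc1, 2 times before Pcgf2 and 0 times before Ezh2. Of the other catalytic subunits, it was present 3 times before Rnf2, 1 time before Ring1 and 0 times before Ezh1. Whether such counts go with the differences was not tested. Such letters are frequent. Of all 32817 windows of this length in the RefSeq table, 56.2% held GGGAA on either strand, as did 25 of the 39 windows of members (64.1%). The table had windows for 27 of the 31 measured members, and 7 of these had several start sites. The longer form TGGGAA, which contains the core, was in 21.6% of all windows and in 8 of the 39 windows of members (20.5%), 1 of them that of Phc1. The E2F-type letters GCGGGAA, which also contain the core, were in 3.82% of all windows and in 5 of the 39 (12.8%), among them that of Suz12. A match is a description of letters, and the windows of members were richer in G and C, with a median of 64.8% against 52.4%.

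Levels were judged against probe sets of olfactory and vomeronasal receptors, which serve sensory neurons. The 95th percentile of 1210 such probe sets, 6.11 on the log2 scale, served as the background level. The value of a probe set depends on its own probes, so levels of different genes are not ranked against each other. All 31 members also exceeded the background in every array, and 30 exceeded the stricter 99th percentile of 6.80. Of all 19938 genes, 13049 exceeded the 95th percentile and 10586 the 99th. Pcgf2, one of 6 alternative PCGF subunits of PRC1, lay between these 2 limits, at a mean of 6.51. Both members of each catalytic pair, Ezh1 with Ezh2 and Ring1 with Rnf2, lay above the background level. So did all 6 PCGF genes, the 3 measured Cbx genes and all 3 Phc genes. This level is no call of expression. Of 70 typical Polycomb targets listed below, 33 also lay above it and 37 did not, with Sox1 at 7.89 and Nkx2-5 at 7.57. The lower readings, such as those of Pcgf2, Phf1 (7.45) and Cbx8 (7.67), therefore do not show expression.

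**Figure D2:**
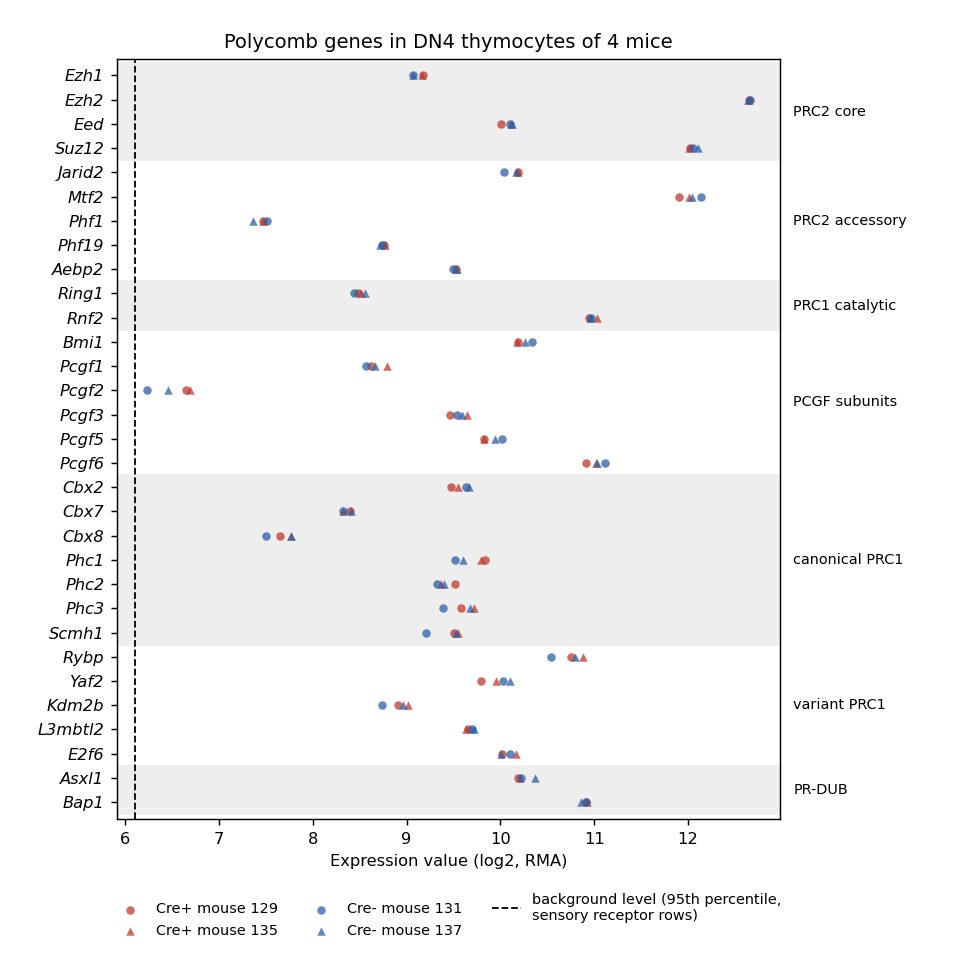
Expression values (horizontal axis, log2, RMA) of the 31 measured Polycomb genes in each of the 4 mice, ordered by role. Red symbols are Cre+ and blue symbols Cre- mice, and the dashed line is the background level of 6.11. All symbols lie to the right of the line, with Pcgf2 closest to it at 6.23 to 6.69.

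The core of PRC2 differed little between the groups. Ezh2, the methyltransferase that prevails in dividing cells, read 12.65 and 12.65 in Cre+ cells against 12.66 and 12.64 in Cre- cells. The groups overlapped, and no mouse stood out. The difference was 0.00 (SE 0.03), with a 95% interval of -0.06 to 0.07. Ezh1, its paralogue that prevails in resting cells, read 9.17 and 9.16 in Cre+ cells against 9.06 and 9.07 in Cre- cells. Its groups did not overlap, and the difference of 0.10 (SE 0.07) did not pass in limma (adjusted p = 0.971). Suz12, the scaffold of the complex, read 12.02 and 12.01 in Cre+ cells against 12.06 and 12.10 in Cre- cells, a difference of -0.06 (SE 0.03) without passing. Eed, which binds the methyl mark and stimulates the enzyme, differed by -0.05 (SE 0.07) with overlapping groups. A second probe set of Eed, at a mean of 5.82, was below the background level and differed by 0.00 (SE 0.09).

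Of the accessory subunits of PRC2, Mtf2 had the largest difference. Mtf2, a Polycomb-like protein that directs the complex to CpG islands, read 11.90 and 12.01 in Cre+ cells against 12.13 and 12.04 in Cre- cells. The groups did not overlap, with mouse 129 lowest and mouse 131 highest, and the difference was -0.13 (SE 0.06, adjusted p = 0.785 in limma). It was -0.23 between the female mice 129 and 131 and -0.03 between the male mice 135 and 137. The sexes were read from Xist and the Y-linked gene Kdm5d, and each group held 1 female and 1 male. The other 2 Polycomb-like genes, Phf1 and Phf19, differed by 0.03 (SE 0.10) and 0.04 (SE 0.08). Jarid2 and Aebp2, which define the alternative form of PRC2, differed by 0.08 (SE 0.07) and 0.03 (SE 0.07). Jarid2 read 10.18 and 10.18 in Cre+ cells against 10.04 and 10.17 in Cre- cells. The groups did not overlap, with mouse 131 lowest and mouse 137 just below both Cre+ mice.

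The ubiquitin ligases of PRC1 had overlapping groups. Ring1 read 8.48 and 8.51 in Cre+ cells against 8.43 and 8.56 in Cre- cells, and the Cre+ values lay between the Cre- values. Its difference was 0.00 (SE 0.09), with a 95% interval of -0.24 to 0.24. Rnf2, which encodes Ring1B, read 10.94 and 11.03 in Cre+ cells against 10.96 and 10.95 in Cre- cells, and the Cre- values lay between the Cre+ values. Its difference was 0.03 (SE 0.05), with a 95% interval of -0.11 to 0.16.

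The PCGF subunits, each of which defines a form of PRC1, pointed in both directions. Of the 6 genes, 2 had higher and 4 had lower means in Cre+ cells, and none passed. Pcgf2, which encodes Mel18, read 6.65 and 6.69 in Cre+ cells against 6.23 and 6.46 in Cre- cells. The groups did not overlap, mouse 131 was the lowest, and both Cre- values lay near the background level. The difference of 0.32 (SE 0.12, 1.25-fold) had a 95% interval of 0.02 to 0.62 and did not pass in limma (adjusted p = 0.722). Bmi1, the paralogue of Pcgf2 that supports self-renewal, read 10.19 and 10.18 in Cre+ cells against 10.34 and 10.26 in Cre- cells. Its groups did not overlap either, in the opposite direction to those of Pcgf2, and the difference was -0.11 (SE 0.06) without passing.

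Pcgf5 read 9.82 and 9.83 in Cre+ cells against 10.02 and 9.94 in Cre- cells, a difference of -0.15 (SE 0.07, adjusted p = 0.808 in limma). Pcgf6, a subunit of the variant complex that also holds L3mbtl2 and E2f6, differed by -0.10 (SE 0.06). Both had groups that did not overlap, with the Cre+ values lower. Pcgf3, the closest relative of Pcgf5, differed by -0.01 (SE 0.09), and Pcgf1, which pairs with Kdm2b, by 0.09 (SE 0.10), with overlapping groups.

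Canonical PRC1 held the member with the smallest p. Phc1, a polyhomeotic protein whose SAM domain links PRC1 complexes into larger assemblies, read 9.83 and 9.80 in Cre+ cells against 9.52 and 9.61 in Cre- cells. Both Cre+ values lay above both Cre- values, and the gap between the groups was wider than that within either group. The difference was 0.25 (SE 0.07, 1.19-fold), with a 95% interval of 0.07 to 0.44 (adjusted p = 0.560 in limma). It was 0.31 between the female mice and 0.19 between the male mice. Leaving out each mouse in turn gave 0.21 to 0.30. Its paralogues Phc2 and Phc3 differed by 0.08 (SE 0.09) and 0.11 (SE 0.12), with overlapping groups, and a second probe set of Phc3 differed by -0.02 (SE 0.17). Without mouse 131 the difference of Phc3 was -0.03, and without mouse 137 it was 0.26. Whether Phc1 differed from its paralogues was not tested.

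Of the Cbx genes, which carry the chromodomain that reads the methyl mark, Cbx2 was lower in both Cre+ mice. It read 9.47 and 9.55 in Cre+ cells against 9.64 and 9.66 in Cre- cells, a difference of -0.14 (SE 0.07, adjusted p = 0.880 in limma). Cbx7 differed by -0.01 (SE 0.09) and Cbx8 by 0.07 (SE 0.13), and their groups overlapped. Without mouse 131 the difference of Cbx8 was -0.06, and without mouse 137 it was 0.20. Scmh1, a Sex comb on midleg homologue, read 9.51 and 9.55 in Cre+ cells against 9.21 and 9.52 in Cre- cells. Mouse 131 alone was low, and the difference of 0.16 (SE 0.12) was 0.00 without it and 0.32 without mouse 137.

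The variant PRC1 genes again split. Rybp and Yaf2 are paralogues that take the place of Cbx proteins. Rybp read 10.75 and 10.88 in Cre+ cells against 10.54 and 10.80 in Cre- cells, with overlapping groups and a difference of 0.15 (SE 0.10). Its second probe set differed by 0.25 (SE 0.13) and its groups did not overlap. Yaf2 read 9.80 and 9.95 in Cre+ cells against 10.03 and 10.10 in Cre- cells, the largest lower difference among the members at -0.19 (SE 0.08, adjusted p = 0.798 in limma). Kdm2b, which binds unmethylated CpG islands, differed by 0.11 (SE 0.11), L3mbtl2, a reader of methylated histones, by -0.06 (SE 0.07), and the E2F family repressor E2f6 by 0.03 (SE 0.08). Without mouse 131 the differences of Rybp and Kdm2b were 0.02 and 0.00, and without mouse 137 they were 0.28 and 0.22. That of Yaf2 was -0.23 without mouse 131 and -0.15 without mouse 137. The 2 PR-DUB genes did not pass either. The deubiquitinase gene Bap1 differed by 0.03 (SE 0.05) and its cofactor Asxl1 by -0.09 (SE 0.07). That of Asxl1 was -0.17 without mouse 131 and -0.02 without mouse 137.

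Over all members, the groups did not overlap for 15 of 31, with 6 higher and 9 lower in Cre+ cells. The share of 48.4% stood beside 36.4% of all genes, 16.1% higher and 20.3% lower. Of the 13049 genes above the background level, where all members lay, the groups did not overlap for 39.8%, 18.9% higher and 21% lower. The 6 higher genes were Ezh1, Jarid2, Phf19, Aebp2, Pcgf2 and Phc1. The 9 lower genes were Suz12, Mtf2, Bmi1, Pcgf5, Pcgf6, Cbx2, Yaf2, L3mbtl2 and Asxl1. The sign was the same in the female and the male pair for 22 of 31 members. This held for 53.9% of all genes and for 55.7% of those above the background level. Groups that do not overlap always give the same sign in both pairs, so the 22 include the 15 and are no separate result.

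Mouse 131 had the lowest of the 4 values in 13 of 31 members (41.9%), against 24.3% of all genes and 28.9% of the 13049 genes above the background level. This was not particular to the members. In the related lists described below, mouse 131 was lowest in 18 of 41 further subunits (43.9%) and 10 of 18 opponents of Polycomb marks (55.6%). It was lowest in 5 of 24 proliferation genes (20.8%) and 5 of 70 Polycomb targets (7.1%). In canonical PRC1 mouse 131 was lowest in 5 of the 7 genes, namely Cbx8, Phc1, Phc2, Phc3 and Scmh1. The median difference of these 7 genes was 0.08, and it was 0.19 between the female mice, of which mouse 131 was one, and 0.00 between the male mice. Over all members the median difference was 0.00 without mouse 131 and between 0.00 and 0.03 without one of the other mice. The part of mouse 131 in these differences was not tested.

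**Figure D3:**
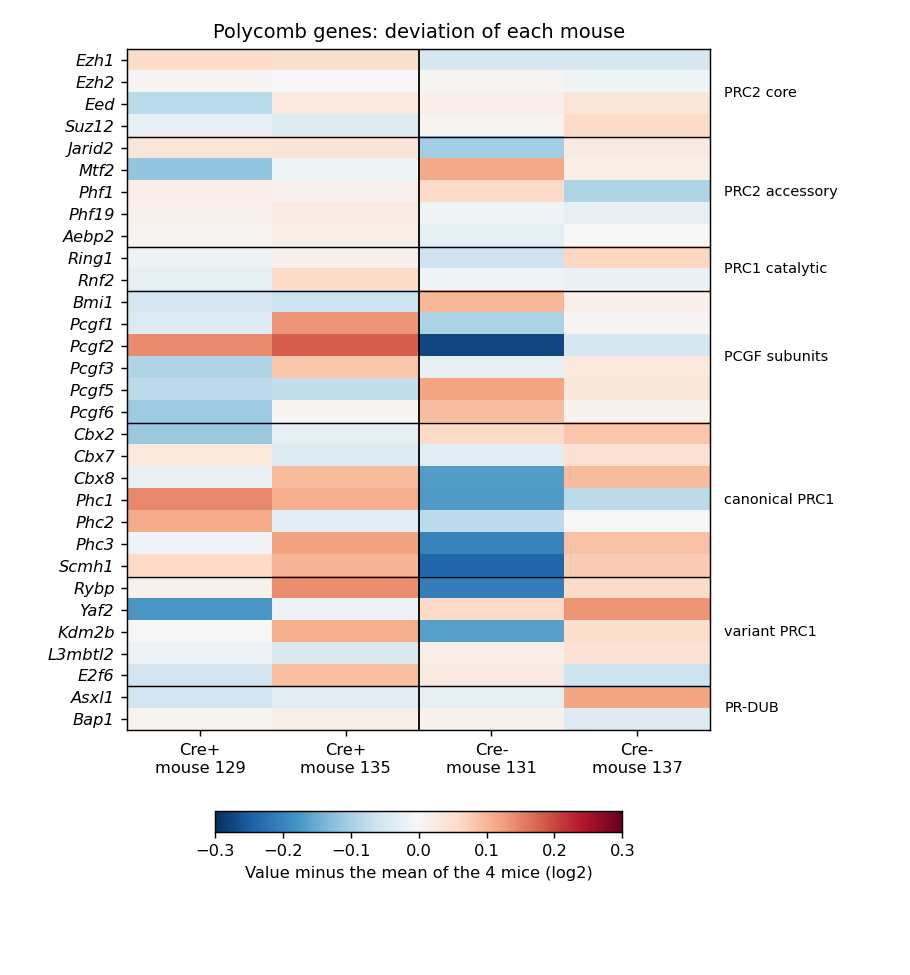
Value of each mouse minus the mean of the 4 mice (colour, log2) for the 31 measured Polycomb genes (rows, by role), with the 2 Cre+ mice on the left and the 2 Cre- mice on the right. Mouse 131 is lowest in 13 rows, among them Pcgf2, Scmh1, Phc3 and Rybp, while Phc1 and Pcgf2 are above the mean in both Cre+ mice and below it in both Cre- mice.

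Other genes tied to the pathway were taken from lists of further subunits, of factors that oppose Polycomb marks, of typical Polycomb targets and of proliferation. Of 41 measured further subunits, 37 were above the background level, and none passed the adjusted test over all probe sets or over those with 1 symbol. At an unadjusted p under 0.05 in limma, 1 was higher and 1 lower, with a median difference of 0.00. This was 4.88% of them, against 6.86% of all genes and 9.52% of those above the background level. Sfmbt2, a relative of Scmh1, differed by 0.28 (SE 0.09), the forkhead gene Foxk2 by -0.17 (SE 0.06) and Tfdp1, the E2F partner, by -0.13 (SE 0.05). The histone-binding subunits Rbbp4 and Rbbp7, which complete PRC2, differed by 0.01 (SE 0.02) and -0.00 (SE 0.04). Of 18 measured opponents, such as the demethylases Kdm6a and Kdm6b, 0 had an unadjusted p under 0.05 in limma. The smallest p-values belonged to the deubiquitinase genes Usp16 (-0.13, SE 0.06) and Usp21 (0.08, SE 0.06) and to the methyltransferase gene Kmt2a (0.13, SE 0.11).

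Typical Polycomb targets were mostly low. Of 70 measured genes, 37 lay at or below the background level, against 6889 of all 19938 genes. This held for 23 of the 37 Hox genes on the list. None of the 70 passed the adjusted test, and their median difference was -0.01. At an unadjusted p under 0.05 in limma, 0 were higher and 1 was lower (1.43%), against 6.86% of all genes. The lower gene was Cdh1, which encodes E-cadherin, with 7.35 and 7.58 in Cre+ cells against 8.16 and 8.01 in Cre- cells. Its difference was -0.61 (SE 0.13), with an adjusted p = 0.391 over all probe sets and 0.0506 over those with 1 symbol. Eya1 and Foxa1 differed by -0.22 (SE 0.09) and 0.27 (SE 0.13), but their means of 5.39 and 5.90 were below the background level. The cell cycle inhibitor genes Cdkn2a and Cdkn2b, well known targets of Bmi1 and Ezh2, differed by -0.02 (SE 0.10) and -0.04 (SE 0.10). The list was assembled from general knowledge of Polycomb targets, and binding in these cells was not analysed here.

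Ezh2 and several partners are transcribed with the cell cycle, so proliferation genes were set beside them. All 24 measured genes were above the background level, and their median difference was -0.01. Of them, 0 had an unadjusted p under 0.05 in limma, against 9.52% of all genes above that level. Ccne1, Tyms and Rrm2 had the smallest p-values, with differences of -0.17 (SE 0.07), 0.11 (SE 0.05) and -0.09 (SE 0.05). Mki67 differed by -0.01 (SE 0.06).

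**Figure D4:**
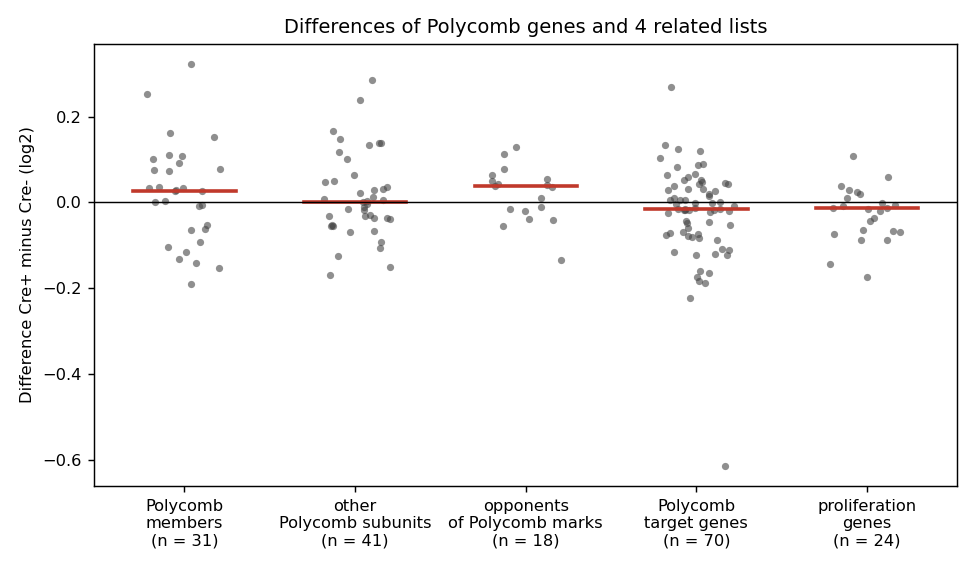
Difference between Cre+ and Cre- (vertical axis, log2) of each gene in the Polycomb list and in 4 related lists, with 1 point per gene and red bars at the medians. The medians lie between -0.01 and 0.04, and the lowest point is Cdh1 at -0.61.

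The identity of the cells was checked with marker genes. Since 13049 of all 19938 genes were above the background level, a count above it does not by itself show a cell type. All 13 measured T lineage markers were above the background level, and their mean ranged from 11.55 to 11.68 in the Cre+ and from 11.46 to 11.49 in the Cre- mice. In the test limited to probe sets with 1 symbol, 5 of them passed, led by Cd3d with a difference of 0.66 (SE 0.08, adjusted p = 0.00432 in limma). The T lineage markers did not all point the same way. Of the 13, 10 had higher and 3 lower means in Cre+ cells, with differences from -0.52 to 0.66. At an unadjusted p under 0.05 in limma, 6 were higher and 1 was lower (53.8%), against 9.52% of all genes above the background level. Of 6 markers of other thymocyte stages, all had means above the background level, and 0 passed the adjusted test in limma over all probe sets or over those with 1 symbol. At an unadjusted p under 0.05, 1 was higher and 3 were lower (66.7%). Of the coreceptor genes, Cd4 read 7.88 and 7.94 in Cre+ cells against 7.26 and 7.47 in Cre- cells, a difference of 0.54 (SE 0.11). Cd8a and Cd8b1 differed the other way, by -0.61 (SE 0.21) and -0.27 (SE 0.08), and Cd8b1 lay between 11.50 and 11.91. Coreceptor transcripts were thus above background in cells labelled as a stage that lacks the proteins. Cd44, a marker of the earliest stages, differed by -0.42 (SE 0.10), with both Cre+ values below the background level. Il2ra, whose protein DN4 cells have lost, lay between 10.71 and 11.58 and differed by -0.38 (SE 0.23), and Kit differed by -0.03 (SE 0.11). Of 7 measured B cell markers 3 were above the background level, and Cd79a, Ms4a1, Ebf1 and Blnk were not. The B cell list mean was 6.26 to 6.31 in the Cre+ and 6.32 to 6.51 in the Cre- mice. Of 10 myeloid and dendritic markers 6 were above it, with Itgam, Adgre1, Itgax and Fcgr3 below and list means of 6.43 to 6.60 and 6.38 to 6.63. Of 8 natural killer markers 3 were above it, with list means of 6.50 to 6.51 and 6.64 to 6.69. Of 5 gamma delta T cell markers 5 were above it, with list means of 7.34 to 7.41 and 7.52 to 7.60. The stroma list had 7 of 10 above it (7.02 to 7.03 and 7.03 to 7.17). The erythroid list had 3 of 3 (6.35 to 6.40 and 6.25 to 6.44), but 0 above the stricter 99th percentile. Among these, Lyz2 was higher by 1.04 (SE 0.18), Nkg7 lower by 1.04 on the log2 scale (SE 0.09) and Blk lower by 0.51 on the log2 scale (SE 0.09), each passing limma in the test limited to probe sets with 1 symbol. Their part in the Polycomb values was not tested. Ikzf1 itself differed by -0.07 (SE 0.04), and since the place of its probes relative to the floxed part was not analysed here, this checks no label.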

How the data were processed

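Total RNA was labelled with biotin in 2 cycles of amplification for Affymetrix arrays, 1 per mouse, per the labels' protocols. Per the submitters' processing notes, the authors made the deposited log2 values with RMA. Their range (3.14 to 14.4) shows the log2 scale, and 0 sample columns were left unused. The version of RMA, the filters and the build were not given in the sources used here. RMA evens out array distributions, so a shift shared by all genes would not be seen.

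Probe sets were named through GEO's platform annotation (21789 with 1 symbol, 1621 with several, 12146 not listed), and the symbols of all 31 members matched RefSeq by gene number. Cre+ and Cre- arrays were compared with limma 3.58.1 in R 4.3.3 (lmFit, eBayes with an intensity trend) and Benjamini-Hochberg adjustment over all 35556 probe sets at 0.05, with 2 residual and 2.99 prior degrees of freedom. No exact two-sided permutation test of 2 against 2 mice can give a p under 0.333, so every p depends on how limma shares the spread across probe sets. Values per mouse were given for members with an unadjusted p under 0.05, for both catalytic pairs and for differences of 0.25 or more. Those of Eed's partners Suz12, Mtf2 and Jarid2 and of Bmi1, Pcgf5, Cbx2, Scmh1, Rybp and Yaf2 were chosen after their values were seen. In other lists, the genes past a threshold or the 3 smallest p-values were named, and other genes named were chosen for their role. Members and lists were chosen with earlier results of these data known.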

Additional observations from a re-analysis of the deposited data

How the results depend on the processing

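The count of 0 members past the adjusted threshold held under all 15 alternatives of the fit (smallest adjusted p = 0.206 in limma), and 21 of the 31 members kept their sign in each. Over all probe sets the count of calls was 0 as fitted. It was 266 with only probe sets of 1 symbol, 274 with the mean over all probe sets of a gene, 25 and 80 with filters at the 25th percentile and the median, and 10 after centring of the arrays. Members at an unadjusted p under 0.05 numbered 2, both higher. They numbered 4 (2 of them lower) with 1-symbol probe sets and with the mean per gene. There was 1 (higher) with the median filter, which removes Pcgf2, and 1 (higher) after cyclic loess, and 1 lower gene was added by renewed quantile normalization. Without single mice these counts ran from 0 to 5, with 0 to 4 higher and 0 to 2 lower. Members with groups apart numbered 19 to 26 without single mice, 7 to 16 of them higher, since fewer arrays overlap less often. The differences of Ezh2 and Ring1, near 0 as fitted, were -0.00027 and -0.0088 after renewed quantile normalization. Without single mice they ran from -0.0070 to 0.014 for Ezh2, -0.061 to 0.062 for Ring1 and -0.016 to 0.072 for Rnf2. The median difference of the members stayed between 0.00064 and 0.037. The cause of these shifts was not tested, other than where fewer rows or arrays explain them. Other background limits left 30 or 31 members above them. The mouse numbers pair no Cre+ with a Cre- mouse, but sex does (129 with 131, 135 with 137), and with sex as a block 0 members passed and 2 had an unadjusted p under 0.05, both higher, as without it. Signal over background limits Pcgf2, whose Cre- values lay near the background level.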

Other observations

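The demethylase genes Kdm6a, on the X chromosome, and Uty, its Y-linked counterpart, varied with the sex of the mice. Uty read 4.85 and 4.86 in the female mice 129 and 131 and 9.26 and 9.16 in the male mice 135 and 137. Kdm6a read 10.84 and 10.68 in the females and 10.28 and 10.36 in the males, while its difference between Cre+ and Cre- was 0.04 (SE 0.21). With 1 mouse of each sex per group these values were not tested.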
